A study of Mus musculus with 16 samples.

Results

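The phagocyte NADPH oxidase was followed through 5 mouse genes that encode its subunits, Cybb, Cyba, Ncf1, Ncf4 and Rac2, chosen by symbol from the 24681 symbols of the deposited count table. All 5 were listed in every library and all 5 passed the filter on low counts. The libraries came from 16 whole tumours of AU565(pv), a human HER2-positive breast cancer line, which grew in a mammary fat pad of SCID host mice and were treated once they measured 20 to 25 mm2. SCID mice have no mature T and B lymphocytes but keep macrophages, neutrophils, dendritic cells and natural killer (NK) cells. Each of 4 groups held 4 mice, 1 library per mouse, and all drugs and vehicles were given into the peritoneum. Vehicle mice received D5W, the solvent given in place of panobinostat, on days 0 and 1 and PBS on day 0. Trastuzumab mice received 10 mg/kg of this antibody against HER2 with D5W. Panobinostat mice received 15 mg/kg of this histone deacetylase inhibitor on days 0 and 1 with PBS, and combination mice received both drugs. Tumours were taken on day 2. The treatment protocol puts trastuzumab on day 0 and the series design on day 1, so its exposure time is uncertain. Tumour cells of these grafts are human, whereas the counted genes are the mouse's, so the levels stand mainly for host cells; how human reads were kept apart is not given in the sources used here. A library is named below by its group and mouse number.

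The phagocyte oxidase passes electrons from NADPH to oxygen and so makes superoxide, with which macrophages and neutrophils attack engulfed targets. Its core is a membrane flavocytochrome of the catalytic subunit gp91phox (NOX2, from Cybb) and its partner p22phox (from Cyba), which is silent in resting cells. On activation cytosolic proteins, p47phox (Ncf1) and p40phox (Ncf4) among them, and a Rac GTPase join it at the membrane. Loss of any of the phox subunits causes chronic granulomatous disease, in which phagocytes fail to kill certain microbes. Activating Fc gamma receptors, which bind antibodies such as trastuzumab on a target cell, are among the receptors that can switch the oxidase on.

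The 5 genes lie at 4 places in the mouse genome (mm10, the same assembly as GRCm38, gene spans from GENCODE M21). Cybb is at chrX:9435252-9487771 on the minus strand. Cyba is at chr8:122424776-122432930 and Ncf1 at chr5:134220053-134229625, both on the minus strand. Ncf4, at chr15:78244801-78262580 on the plus strand, and Rac2, at chr15:78559167-78572783 on the minus strand, are 296.6 kb apart with 10 protein-coding genes between them. Exons of Ncf1 overlap those of Gtf2ird2 on the opposite strand, and the library kit does not mark strand, so reads in that overlap cannot be assigned to 1 of the 2 genes.

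Promoters of Cybb, Cyba and Ncf1 are shown because these genes code for 1 complex yet did not vary together across the libraries, as the levels below show. The RefSeq promoter table (GRCm38.p6) matched 3 of the 5 genes. Each sequence runs 5′ to 3′ on the gene's own strand, from 250 bases before to 15 bases after the annotated start. For Cybb the start used, chrX:9469324, lies inside the gene span given above, which reaches upstream to 9487771. No window at a start further upstream was searched. Capitals mark every match to 3 motifs searched on both strands.
Cybb, chrX:9469310-9469574, minus strand: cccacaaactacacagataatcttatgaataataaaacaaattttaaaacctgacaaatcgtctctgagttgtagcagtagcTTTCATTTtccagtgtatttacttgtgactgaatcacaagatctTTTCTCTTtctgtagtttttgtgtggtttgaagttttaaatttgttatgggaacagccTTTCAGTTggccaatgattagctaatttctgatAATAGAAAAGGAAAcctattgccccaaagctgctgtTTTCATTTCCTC
Cyba, chr8:122432926-122433190, minus strand: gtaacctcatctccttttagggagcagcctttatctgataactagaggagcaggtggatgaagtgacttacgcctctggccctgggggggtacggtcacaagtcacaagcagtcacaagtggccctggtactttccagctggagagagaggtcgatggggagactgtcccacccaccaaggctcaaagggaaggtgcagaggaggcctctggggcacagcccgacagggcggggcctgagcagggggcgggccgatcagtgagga
Ncf1, chr5:134229611-134229875, minus strand: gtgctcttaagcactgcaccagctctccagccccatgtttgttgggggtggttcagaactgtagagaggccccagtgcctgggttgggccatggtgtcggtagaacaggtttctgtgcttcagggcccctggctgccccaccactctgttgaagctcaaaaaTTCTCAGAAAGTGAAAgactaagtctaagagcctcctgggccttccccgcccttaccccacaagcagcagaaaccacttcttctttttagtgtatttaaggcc

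The motifs and the window were chosen after the sequences were seen, and a match is a description of the letters only. The core bound by interferon regulatory factors, AANNGAAA, had at least 1 match in 22.3% of 32851 promoter windows of the same length. It matched Cybb 6 times, counted from the annotated start: at -33 to -26 and -27 to -20 on the gene's strand, which overlap, and at -168 to -161, -124 to -117, -66 to -59 and 4 to 11 on the opposite strand. Ncf1 had 1 match, at -80 to -73. The share of windows with as many matches as Cybb was not counted. The core GAGGAA of PU.1, a transcription factor of myeloid cells encoded by Spi1, was held by 24.6% of windows and matched Cybb at 10 to 15 on the opposite strand, where it overlaps the last of those sites. The gamma-activated site TTCNNNGAA was held by 7.48% and matched Ncf1 at -88 to -80, sharing 1 base with the other match there. Cyba had no match to any of the 3. G and C made up 60% of its window, against 34% for Cybb and 54% for Ncf1.

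Total counts ran from 4848102 to 8140782 per library, and the members had from 438 counts (Ncf4) to 2319 counts (Cybb) in a library. Combination 22 had the highest total. Marker genes of macrophages were abundant: vehicle tumours had 4664 ± 578 CPM (counts scaled to a common library total, with the trimmed mean of M-values, TMM) of Lyz2, 536 ± 81.5 of Csf1r and 254 ± 27.8 of Emr1, the F4/80 gene (SD, n = 4). Ly6g, which defines mouse neutrophils, was at most 0.201 CPM in any library and had no count in the panobinostat group, and Cd3d, a T cell gene, stayed under 1 CPM. These are bulk libraries, so fewer cells of a type and less RNA per cell cannot be told apart.

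None of the 5 members was called in any of the 9 comparisons (edgeR's quasi-likelihood test, Benjamini-Hochberg adjusted p under 0.05 over 15610 genes). The share of all tested genes called was 2.2% for the combination against vehicle, 0.192% for panobinostat against vehicle and 0% for trastuzumab against vehicle. It was 0.628% for the combination against trastuzumab, 0% for the combination against panobinostat and 0.0641% for panobinostat against trastuzumab. With 8 libraries on each side, it was 3.02% for panobinostat averaged over trastuzumab and 0.147% for trastuzumab averaged over panobinostat, and 0% of genes were called for the interaction of the drugs. At such shares, 0 of 5 is no result about the members, and the sizes and intervals of their differences carry the description. At an unadjusted p under 0.05 there were 2 of 5 members in the combination against vehicle, where 13.8% of all genes passed. There was 1 of 5 for trastuzumab against vehicle (3.52% of all genes), 1 of 5 for panobinostat against vehicle (8.1%) and 1 of 5 for panobinostat against trastuzumab (7%). For the averaged effects there were 2 of 5 for panobinostat (13.5% of all genes) and 1 of 5 for trastuzumab (5.94%), and for the interaction 0 of 5 (1.79%). The largest differences from vehicle were a higher Cybb with trastuzumab or both drugs, a lower Cyba with panobinostat and a higher Rac2 with panobinostat or both drugs.

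Cybb, the catalytic subunit, was lowest in vehicle and highest in the combination. Its TMM-scaled CPM in vehicle tumours 3, 6, 21 and 29 were 254, 194, 210.2 and 219, and in trastuzumab tumours 12, 15, 20 and 24 they were 318, 312, 225 and 309.7. Panobinostat tumours 4, 7, 8 and 13 had 284, 235, 255 and 215, and combination tumours 2, 11, 16 and 22 had 289, 295, 337 and 282. All 4 combination libraries were above all 4 vehicle libraries, while trastuzumab 20 fell within the vehicle range. In the panobinostat group 7 and 13 lay within the vehicle range, and 4 and 8 lay above it, 8 by under 1 CPM. Libraries of the 2 groups did not overlap for 1 of the 5 members, Cybb, and 4.27% of all genes tested were likewise higher in the combination without overlap. Group means ran from 219 ± 25.5 in vehicle through 247 ± 29.4 with panobinostat and 291 ± 44.0 with trastuzumab to 301 ± 25.0 in the combination (SD, n = 4), and neighbours in this order overlapped.

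The Cybb ratio of combination to vehicle was 1.37 (95% interval 1.13 to 1.66), a log2 difference of 0.46 ± 0.13 (SE) with an adjusted p of 0.0749 by edgeR. The ratio was 1.33 (1.10 to 1.61) for trastuzumab against vehicle, with an adjusted p of 0.937, and 1.13 (0.931 to 1.37) for panobinostat against vehicle, with 0.852. Cybb stood at place 80 of 15610 genes by p in trastuzumab against vehicle, a comparison in which no gene was called. Averaged over panobinostat, trastuzumab gave a log2 difference of 0.35 ± 0.09 with an adjusted p of 0.270. DESeq2 called the combination difference at the same size (0.46, adjusted p = 0.0243), and so did the edgeR fit with the total count as a covariate, added after the values were seen (0.47, adjusted p = 0.0367). Each of these fits called 1 of 5 members, where DESeq2 called 3.09% of all genes and the fit with the covariate 4.27%. Over all alternatives the adjusted p ran from 0.0243 to 0.204, the highest without vehicle 6.

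Cyba, the p22phox partner that holds gp91phox stable and also serves NOX4, did not follow Cybb. Its CPM were 159.95, 219.6, 128 and 182 in vehicle tumours 3, 6, 21 and 29, and 197, 165, 166 and 156 in trastuzumab tumours 12, 15, 20 and 24. They were 131, 109.7, 118 and 164.5 in panobinostat tumours 4, 7, 8 and 13, and 122, 159, 126 and 187 in combination tumours 2, 11, 16 and 22. Of the 8 libraries with panobinostat, 4 (panobinostat 7 and 8, combination 2 and 16) were below every library without it, but the groups overlapped. The means were 172 ± 38.5 in vehicle, 171 ± 18.2 with trastuzumab, 131 ± 24 with panobinostat and 148 ± 30.7 in the combination (SD, n = 4). Panobinostat against vehicle gave a ratio of 0.759 (95% interval 0.585 to 0.987; log2 difference -0.40 ± 0.17, edgeR adjusted p = 0.557). The combination gave 0.861 (0.664 to 1.12) and trastuzumab 0.992 (0.765 to 1.29).

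**Figure D1:**
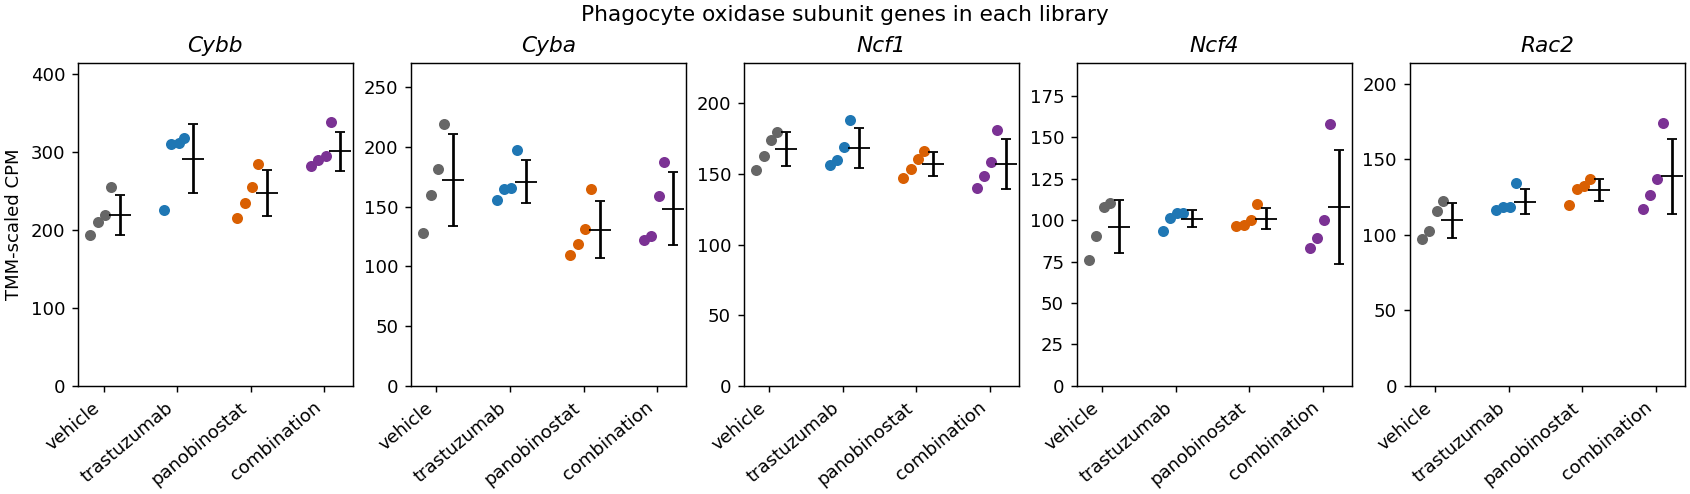
TMM-scaled CPM (y axis, from 0) of the 5 members in each of the 16 libraries, 1 point per tumour, by treatment group (x axis), with the mean (horizontal bar) and SD (whisker) of 4 libraries. The 4 combination libraries of Cybb lie between 282 and 337, above all vehicle libraries, and combination 22 stands high in Ncf4 at 158 and in Rac2 at 174.

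The cytosolic organizer Ncf1, whose product p47phox is phosphorylated on activation and brings the other cytosolic subunits to the membrane, had similar means in the 4 groups, from 157 to 168 CPM. It ran from 153 to 179.6 CPM in vehicle, 157 to 188 with trastuzumab, 147 to 166 with panobinostat and 139.9 to 181 in the combination. These ranges overlapped in every pair of groups. The intervals of its ratio to vehicle were 0.865 to 1.17 for trastuzumab, 0.806 to 1.09 for panobinostat and 0.807 to 1.09 for the combination. How reads from the overlap with Gtf2ird2 were counted is not stated, so they may be part of these counts or missing from them.

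Ncf4 encodes p40phox, which binds the lipid PI3P on phagosomes. Its CPM in vehicle tumours 3, 6, 21 and 29 were 90.3, 107.7, 76.0 and 110.7, and in trastuzumab tumours 12, 15, 20 and 24 they were 104, 93.8, 104 and 101.5. Panobinostat tumours 4, 7, 8 and 13 had 100.4, 96.2, 110.1 and 97.2, and combination tumours 2, 11, 16 and 22 had 100.4, 83.0, 89.5 and 158. Combination 22 was far above the other 15 libraries, of which none passed 110.7, and the rest of its group sat inside the vehicle range. The combination ratio to vehicle was 1.12 (95% interval 0.871 to 1.44; log2 difference 0.17 ± 0.17, edgeR adjusted p = 0.748), and without combination 22 the log2 difference turned to -0.08. Ratios to vehicle were 1.05 (0.815 to 1.35) for both single drugs.

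Rac2, the Rac GTPase of blood cells that completes the active oxidase, was lowest in vehicle. Its CPM in vehicle tumours 3, 6, 21 and 29 were 102, 116, 97.5 and 123, and in trastuzumab tumours 12, 15, 20 and 24 they were 134, 117, 118 and 118. Panobinostat tumours 4, 7, 8 and 13 had 131, 132, 119.7 and 137, and combination tumours 2, 11, 16 and 22 had 137, 126, 117 and 174. Vehicle overlapped every treated group through its highest library, 29, alone, while vehicle 6 lay just under the lowest treated library, trastuzumab 15. The means ran in the order vehicle (109.6 ± 11.7), trastuzumab (122 ± 8.38), panobinostat (129.8 ± 7.24) and combination (139 ± 25.1; SD, n = 4), with overlap between neighbours.

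Against vehicle, Rac2 had a ratio of 1.27 in the combination (95% interval 1.058 to 1.51; log2 difference 0.34 ± 0.12, edgeR adjusted p = 0.179). It was 1.18 (0.990 to 1.42) with panobinostat and 1.11 (0.929 to 1.33) with trastuzumab. Without combination 22 the combination difference was 0.21 on the log2 scale. Panobinostat averaged over trastuzumab gave 0.22 ± 0.08 with an adjusted p of 0.236. The interaction of the drugs was near 0 with wide intervals for all members, from -0.13 ± 0.18 for Cybb to 0.19 ± 0.24 for Cyba on the log2 scale.

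**Figure D2:**
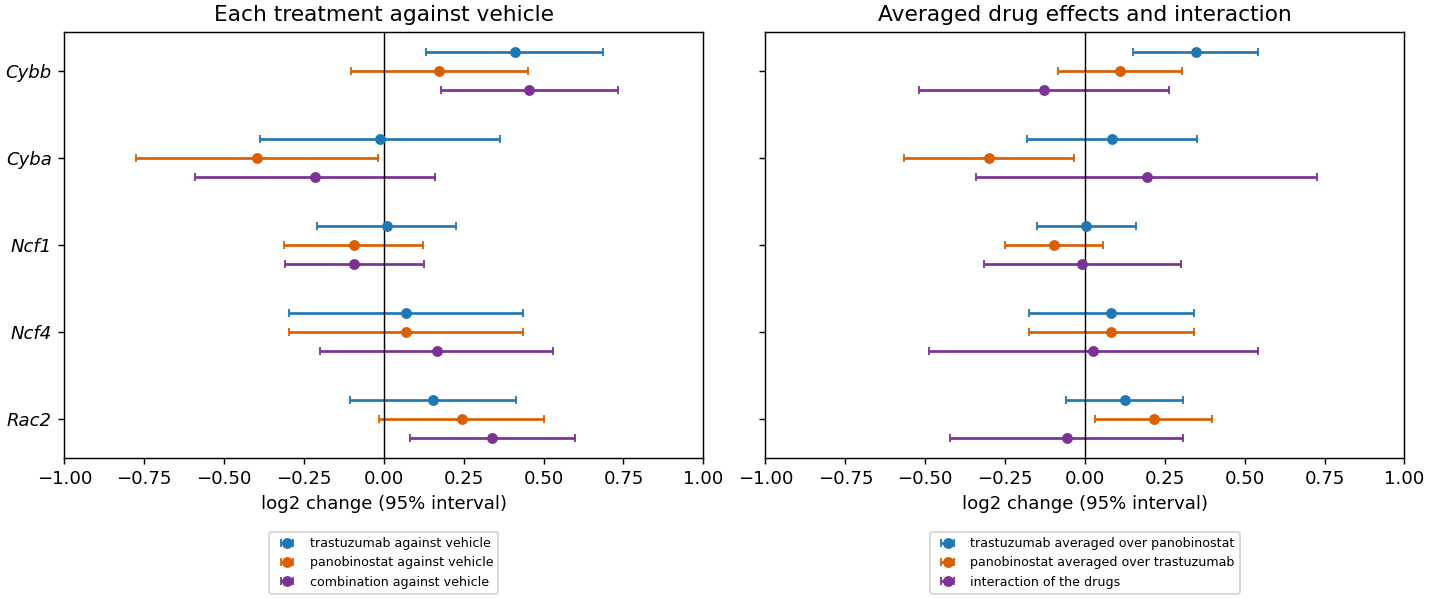
Log2 differences (x axis) of the 5 members (y axis) from edgeR, with 95% intervals from an approximate standard error. The left panel shows each treatment against vehicle and the right panel the averaged effect of each drug and their interaction; intervals clear of 0 include Cybb in the combination (0.46) and with trastuzumab (0.41), and none of these passed the adjusted threshold.

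Comparisons among the treated groups gave no called member either. Adding trastuzumab to panobinostat, Cybb differed by 0.28 ± 0.13 on the log2 scale (edgeR adjusted p = 0.976), and 1 of 5 members had an unadjusted p under 0.05 where 4.48% of all genes did. Adding panobinostat to trastuzumab gave -0.20 ± 0.17 for Cyba and 0.19 ± 0.12 for Rac2 (edgeR adjusted p = 0.795 and 0.694), and 0 of 5 members had an unadjusted p under 0.05 where 9.26% of genes did. Panobinostat against trastuzumab gave -0.39 ± 0.17 for Cyba and -0.24 ± 0.13 for Cybb (edgeR adjusted p = 0.659 and 0.793). These comparisons share libraries with those against vehicle and with each other.

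Of the other genes of the complex and its surroundings described here, Rac1, Cybc1, Rap1a and Hvcn1, 0 of 4 were called in any comparison. In no comparison were more than 3.02% of all genes tested called. Cybc1, the chaperone of the flavocytochrome, listed as BC017643, differed from vehicle by 0.02 to 0.11 in trastuzumab and combination tumours and by -0.04 with panobinostat, on the log2 scale. Rap1a, a small GTPase found with the flavocytochrome, differed by -0.27 ± 0.11 in the combination (edgeR adjusted p = 0.251). Hvcn1, the proton channel that balances the oxidase's charge, differed by -0.41 ± 0.20 with panobinostat (edgeR adjusted p = 0.627).

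Compared per kilobase of the longest principal transcript, the genes of 1 complex were far from equal in bulk level. Which host cells the reads of each gene came from was not tested, so these are not levels within phagocytes. In vehicle tumours Cyba stood highest at 232 ± 51.7 CPM per kb, against 46.1 ± 5.36 for Cybb, its partner in the flavocytochrome (SD, n = 4). Among the cytosolic subunits Ncf4 (65.7 ± 11.1) and Ncf1 (61.5 ± 4.40) overlapped. The level of Rac2 was 36.1 ± 3.85 and that of the widely expressed Rac1 was 83.0 ± 6.74 CPM per kb. Cybc1 (22.3 ± 2.11) and Hvcn1 (14.0 ± 2.19) were low and Rap1a (78.1 ± 8.36) was near Rac1. Exons of Rac1, Cybc1 and Hvcn1 overlap other genes on the opposite strand. Their levels may include reads of those genes, or lack reads of their own that were set aside in the overlap.

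**Figure D3:**
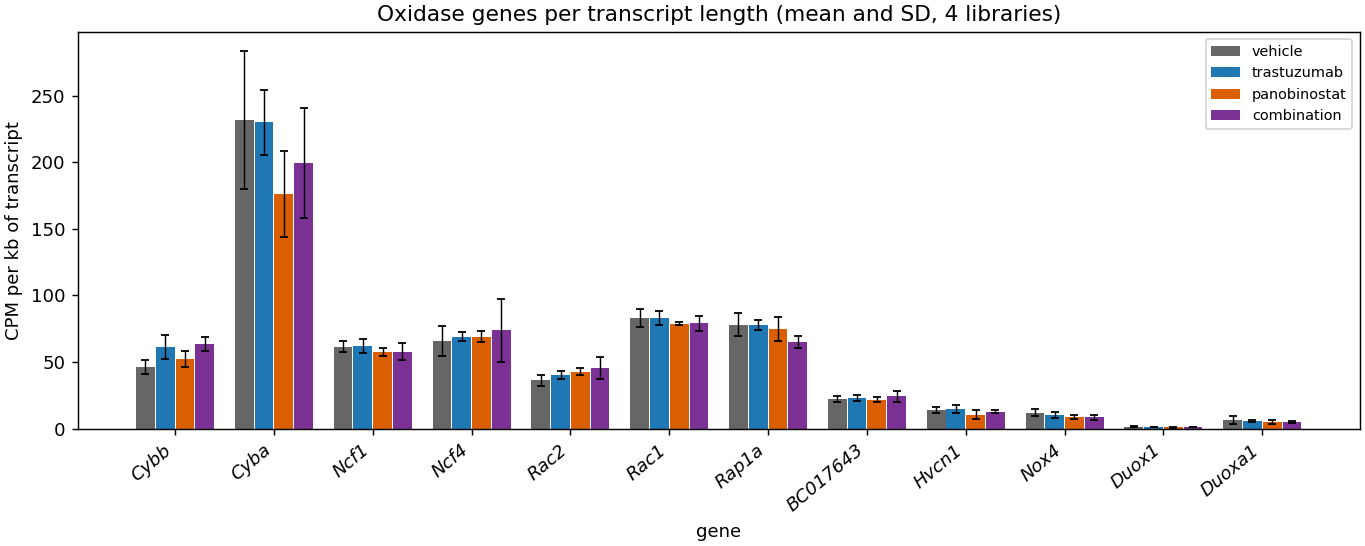
Level per transcript length (y axis, TMM-scaled CPM per kb, bars from 0, mean and SD of 4 libraries) of oxidase genes (x axis) in the 4 groups. Cyba stands highest in every group, at 232 in vehicle, while Cybb is at 46.1 and the other NADPH oxidase genes Nox4, Duox1 and Duoxa1 are at 12 or less in vehicle.

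The ratio of Cybb to Cyba per kb was 0.208 ± 0.0558 in vehicle, 0.268 ± 0.0448 with trastuzumab, 0.304 ± 0.0661 with panobinostat and 0.329 ± 0.0822 in the combination (SD, n = 4). The ranges overlapped, with 0.138 to 0.257 in vehicle and 0.236 to 0.420 in the combination. Rac1 outnumbered Rac2 per kb in every library, by 2.21 to 2.38 times in vehicle, 2.02 to 2.17 with trastuzumab, 1.78 to 1.95 with panobinostat and 1.48 to 1.98 in the combination. All 12 treated libraries had a lower ratio than all 4 vehicle libraries. Both ratios were chosen after their values were seen. The background was counted for each treated group alone, not for all 12 treated libraries together. As background, 0.91% of genes had a ratio to Rac1 that was higher than in vehicle without overlap with trastuzumab, 4.88% with panobinostat and 5.27% with the combination.

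The members did not vary as 1 unit over the 16 libraries. Over their 10 pairs, Pearson's r of log2 CPM ran from -0.17 (Cybb with Cyba) to 0.75 (Ncf4 with Rac2), with a median of 0.21. The pair Ncf4 and Rac2 fell to 0.48 without combination 22, and Spearman's coefficient over all 16 was 0.39. For deviations from group means, Cyba, Ncf1, Ncf4 and Rac2 varied together more in every pair but Cyba with Ncf1. For that pair r fell from 0.41 to 0.24. The highest r among these genes was 0.84 (Ncf4 with Rac2), with 0.71 for Cyba with Rac2 and 0.69 for Ncf1 with Ncf4. Cybb stood apart from these genes, at -0.27 (Rac2) to 0.22 (Ncf1). These deviations were not correlated with combination 22 left out. These correlations describe 16 points that share 4 treatments, 1 scaling and a range of total counts.

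Cybb went with some genes of myeloid cells and leukocytes rather than with its partners in the complex. The 3 genes most like it of 15604 were Itgax, the integrin CD11c of dendritic cells and some macrophages (r = 0.89, Spearman's coefficient 0.87), Sema4d, a semaphorin of leukocytes (r = 0.88), and Emr4, an adhesion receptor of the F4/80 family (r = 0.88). For deviations from group means the r with Itgax was 0.71 and with Sema4d 0.74. Ptprc, the CD45 gene of all leukocytes, was at place 11 with an r of 0.82. In contrast the r of Cybb was 0.03 with Ncf1, 0.02 with Ncf4 and 0.25 with Rac2. The r of Cybb was also low with the macrophage genes Csf1r (0.09) and Emr1 (0.16).

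The other members each had a different nearest set. For each member, Cybb included, the nearest genes are the highest of 15604 correlations over 16 libraries. How high such maxima run for other genes was not tested. Cyba was most like Renbp (r = 0.92), Smim19 (0.91) and Ftl1, a ferritin light chain gene (0.89), and Ncf1 was most like Coq10b (0.83), Saysd1 (0.83) and Cdk20 (0.82). For Ncf4 they were Tpm3-rs7 (0.91), Plekho1 (0.87) and Rpl32, a ribosomal protein gene (0.87), and for Rac2 Cdkn1a, the cell-cycle inhibitor p21 (0.94), Gnb2l1 (0.93) and Fam46a (0.93). With combination 22 left out, the 3 values for Ncf4 were 0.83, 0.71 and 0.79, and those for Rac2 were 0.89, 0.87 and 0.86. Sfpi1, the listed name of the PU.1 gene Spi1, had an r of 0.85 with Ncf4 and 0.84 with Rac2 but 0.05 with Cybb. Without combination 22 the first was 0.63 and the second 0.67. The mean of the members' z-scores was most like Efhd2 (0.91), Tpm3-rs7 (0.89), Limd2 (0.84), Ppp1r11 (0.83) and Zfp622 (0.83). With combination 22 left out these were 0.83, 0.80, 0.73, 0.66 and 0.74.

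**Figure D4:**
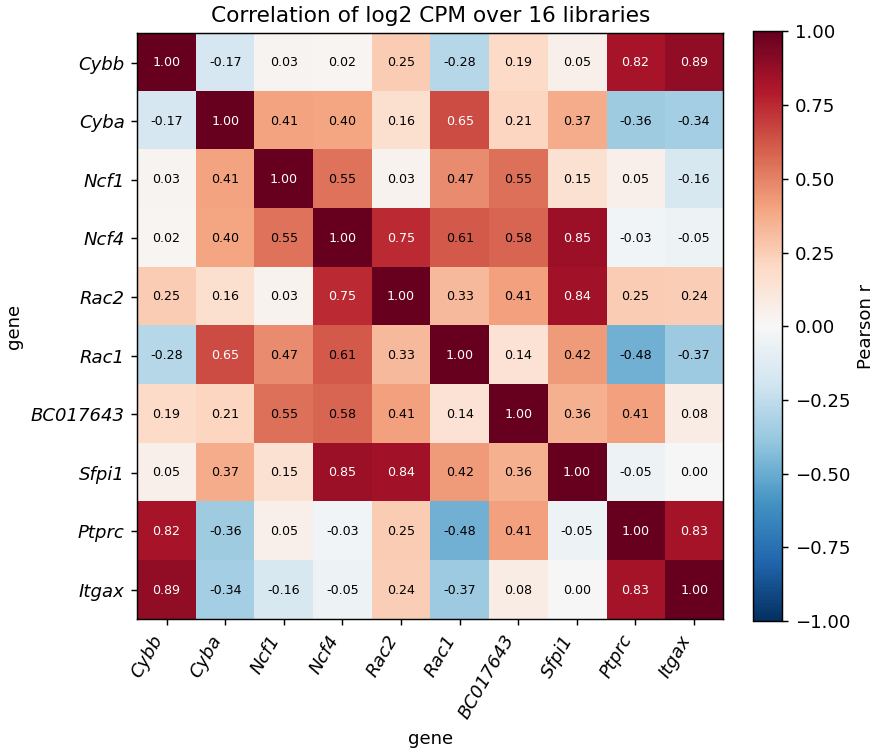
Pearson correlation of log2 CPM over 16 libraries between the members, other parts of the oxidase and 3 myeloid or leukocyte genes (both axes are genes; red is positive, blue negative, values printed). Cybb has its highest values with Itgax (0.89) and Ptprc (0.82), and Ncf4 and Rac2 have theirs with Sfpi1 (0.85 and 0.84).

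The total count of a library moved with several members inside the groups. With log2 of the total added to the fit, after the values were seen, Cyba was higher by 0.80 ± 0.24 on the log2 scale per doubling of the total (edgeR adjusted p = 0.0168) and Rac2 by 0.59 ± 0.16 (adjusted p = 0.00848). Of all genes, 35.5% were called for this term, so 2 of 5 members is near the background. Ncf4 had 0.64 ± 0.25 (adjusted p = 0.0575), and the values of Cybb (-0.14 ± 0.23) and Ncf1 (0.14 ± 0.17) were within their error of 0. The calls of Cyba and Rac2 were lost without combination 22 (adjusted p = 0.0793 and 0.0878) and without combination 16 (0.0525 for each), and the value of Ncf4 fell to 0.16 without combination 22. Ncf4 was called without combination 11 (0.0319), trastuzumab 12 (0.0462) or trastuzumab 20 (0.0208). With the total in the fit, panobinostat averaged over trastuzumab lowered Cyba by a called amount (-0.33, edgeR adjusted p = 0.0468), as 1 of 5 members where 5.64% of all genes were called.

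**Figure D5:**
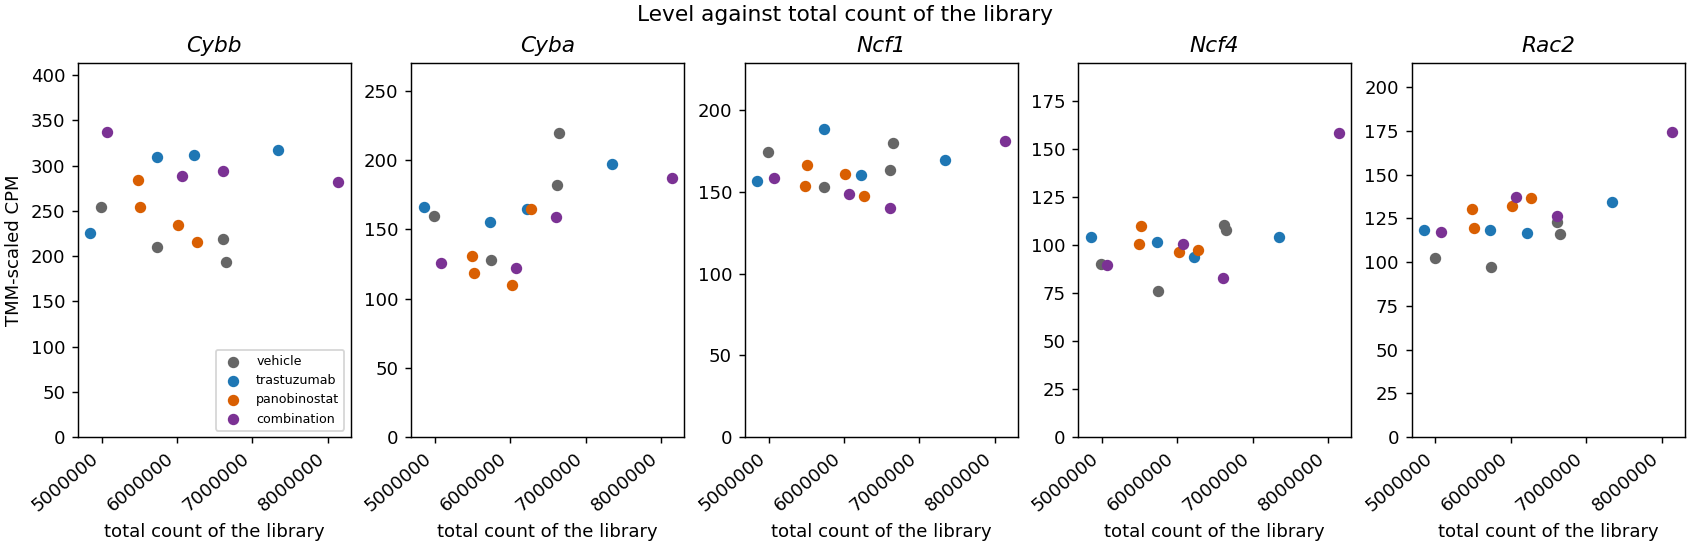
TMM-scaled CPM of each member (y axis, from 0) against the total count of its library (x axis), 16 libraries coloured by group. Cyba and Rac2 tend to be higher in deeper libraries, while Cybb and Ncf1 show no such trend; the rightmost point is combination 22.

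Marker lists of host cell types differed between the combination and vehicle to different degrees. Whether the lists varied with Cybb over the libraries was not tested. They were chosen with earlier results of these data known. Of 8 dendritic cell markers, 2 rose in the combination against vehicle, where 2.2% of all genes tested were called in either direction. They were Itgax (log2 difference 1.07 ± 0.19, edgeR adjusted p = 0.00568) and Cd86 (0.96 ± 0.15, adjusted p = 0.00357). Their list's summed level was 143 to 158 CPM in vehicle, 161 to 172 with panobinostat, 164.5 to 219 with trastuzumab and 235 to 246 in the combination, and no marker of the list was at 0 in a group. Flt3, Zbtb46 and Xcr1, which mark conventional dendritic cells, were low, at 6.63 ± 2.01, 11 ± 2.04 and 3.91 ± 0.530 CPM in vehicle and 4.40 ± 1.39, 13 ± 1.49 and 2.69 ± 0.530 in the combination (SD, n = 4). Of 8 pan-leukocyte markers, 2 rose, Cd52 (1.17 ± 0.15) and Ptprc (0.53 ± 0.13, adjusted p = 0.0440), with list sums of 1522 to 1789 CPM in vehicle and 1796 to 2077 in the combination. Leaving out each of the 8 vehicle and combination libraries in turn, added after the values were seen, kept the calls of Itgax, Cd86 and Cd52 each time, whereas the call of Ptprc was kept only without vehicle 3 (edgeR adjusted p from 0.0418 to 0.131). The part of these cell types in the Cybb difference was not tested.

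Of 12 macrophage markers, 0 were called in any comparison against vehicle. Of all genes tested, 2.2% were called in the combination against vehicle, which is the background for the counts in this paragraph. The summed level of the macrophage markers was 8491 to 11627 CPM in vehicle and 8704 to 11605 in the combination. Of 8 monocyte markers 2 rose in the combination, among them the chemokine receptor Ccr2 (1.00 ± 0.17, edgeR adjusted p = 0.00488), with sums of 960 to 1465 CPM in vehicle and 1293 to 2060 in the combination. With 1 library left out, 1 to 4 monocyte markers rose, and the list's median log2 difference of 0.50 became 0.23 without combination 22. Of 14 neutrophil markers 9 were tested, and 3 fell, S100a8 (-1.85 ± 0.27), S100a9 (-1.96 ± 0.34) and Cxcr2 (-0.71 ± 0.17, adjusted p = 0.0320). The list did not move one way: of the other 6, Mmp8 (1.90 ± 0.49, edgeR adjusted p = 0.0551), Ltf (0.67 ± 0.57, 0.681) and Lcn2 (0.40 ± 0.21, 0.423) had positive differences, Retnlg, Mmp9 and Csf3r had negative ones, and none of these 6 was called with all libraries in the fit; 1 neutrophil marker rose without combination 16. The neutrophil sums were 287 to 410.3 CPM in vehicle and 253 to 344 in the combination, and Ly6g, Mpo and Elane were at most 1.40 CPM in any library. Of 8 NK cell markers, 2 rose, Klrk1 (1.97 ± 0.34) and Gzmb (2.65 ± 0.66, adjusted p = 0.0430). The call of Cxcr2 was kept only without vehicle 29 or combination 22 and that of Gzmb only without combination 2 or 16, 2 of the 8 fits that left out a library in each case. No marker of the eosinophil and mast cell, T and B cell, endothelial, fibroblast, adipocyte or epithelial lists was called in the combination against vehicle, except that 1 epithelial marker rose without vehicle 21 or without combination 16. The part of these lists in the members' values was not tested.

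Several genes for receptors that switch the oxidase on were called. Of 13 genes listed for such receptors, 4 rose in the combination against vehicle, where 2.2% of all genes tested were called in either direction. The 13 include Fcgr2b, an inhibitory Fc gamma receptor, and Fcer1g, an adaptor of the receptors. The list was chosen with earlier results of these data known, so the count is no test of the list. The median log2 difference of the 13 was 0.31 against -0.01 for all genes tested. Clec7a, the beta-glucan receptor dectin-1, was 2.36 times as high (log2 difference 1.24 ± 0.16, edgeR adjusted p = 0.00108). The activating Fc gamma receptors Fcgr4 (1.41 ± 0.21, adjusted p = 0.00184) and Fcgr1 (1.03 ± 0.15, adjusted p = 0.00128) and the formyl peptide receptor Fpr2 (1.56 ± 0.30, adjusted p = 0.00963) also rose. Clec7a was called for trastuzumab averaged over panobinostat (0.84 ± 0.11, adjusted p = 0.00719), and the other 3 for panobinostat averaged over trastuzumab. In these comparisons 0.147% and 3.02% of all genes were called. The list's summed level was 1424 to 1776 CPM in vehicle, 1515 to 1823 with trastuzumab and 1716 to 1889 with panobinostat. In combination tumours 2, 11, 16 and 22 it was 2099, 1871, 1940 and 2747 CPM, so combination 22 stood far above the other 3, which were themselves above all vehicle libraries. The 4 receptors were called each time a library was left out; without combination 22 the differences were 1.16 for Clec7a, 1.10 for Fcgr4, 0.86 for Fcgr1 and 1.26 for Fpr2 on the log2 scale, with a list median of 0.31.

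Of 17 genes that relay the signal to the oxidase, 1 rose in the combination against vehicle, where 2.2% of all genes tested were called. The list's median log2 difference was 0.08. Of 9 tested regulators of oxidase genes 3 rose, with a median of 0.24, among them Ciita (1.04 ± 0.18, edgeR adjusted p = 0.00488) and Irf1 (1.03 ± 0.23, adjusted p = 0.0207), both known to take part in the response to interferon gamma. Both were also called for panobinostat averaged over trastuzumab, where 3.02% of all genes were called. The regulators summed to 790.2 to 976 CPM in vehicle and to 1064, 1294, 1029 and 1650.3 in combination tumours 2, 11, 16 and 22, the last again the highest. Without combination 22 the list's median was 0.14 and Irf1 was not called (0.74, edgeR adjusted p = 0.0618); its call was also lost without combination 11, vehicle 21 or vehicle 29, while Ciita was called in all 8 fits. Sfpi1 differed by 0.24 ± 0.15 (adjusted p = 0.527) and was not called.

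Other oxidases and the genes that remove oxidants gave no call. Of 9 genes of other NADPH oxidases 3 were tested, and Nox4, which makes hydrogen peroxide and also uses p22phox, differed by -0.54 ± 0.19 in the combination and -0.43 ± 0.19 with panobinostat (edgeR adjusted p = 0.180 and 0.556). Its level in vehicle was 45.1 ± 9.14 CPM, while Nox1 stayed under 1 CPM. Of 20 antioxidant genes 0 were called in the combination against vehicle, where 2.2% of all genes tested were called. Their median log2 difference was -0.08, with a range of -0.59 to 0.22.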

How the data were processed

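The deposited values are raw read counts per mouse symbol, made with CASAVA 1.8.2, TopHat2 and HTSeq on mm10, per the submitters' processing notes; further settings are not stated. Of 24681 symbols, 1327 were left out because all 8 libraries with panobinostat had a dot instead of a number, which leaves 23354. Libraries without panobinostat held 142 to 2963 counts in these symbols. The reason for the dots is not known here. Any difference in processing that goes with them cannot be told apart from panobinostat. Genes that passed filterByExpr (15610) entered 1 edgeR 4.0.16 quasi-likelihood fit (R 4.3.3) over all 16 libraries with TMM scaling. The SE is the log2 difference over the square root of F and is approximate; 95% intervals use 12 residual degrees of freedom. P-values weigh the difference between groups against the spread between mice, estimated over all groups. Levels are TMM-scaled CPM computed from the deposited counts. DESeq2 1.42.0, limma 3.58.1, other scalings, no filter and leaving out each library were alternatives. The members and the gene lists were chosen with earlier results of these data known. Always named were the members and Rac1, Cybc1, Rap1a and Hvcn1, then up to 4 called genes per list and comparison, up to 3 leading markers per cell type and the nearest genes by correlation (at least 1 CPM on average). Ptprc, Sfpi1, Csf1r and Emr1 in the correlations were chosen after their values were seen. Values of several other genes covered by this rule are not reported here. The fit was tested on simulated data.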

Additional observations from a re-analysis of the deposited data

Results flagged for a closer look

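In 40 sets of 4 libraries (10 oxidase genes in 4 groups), 3 held a library whose gap to the next was over 0.829 of the group's range; chance flags about 1 set in 20. Cybb in trastuzumab 20 was 225 CPM, with 309.7 the next lowest of its group and a gap of 0.914 of the range. Trastuzumab 20 also had the lowest total count of all libraries, 4848102, and the lowest dendritic cell marker sum of its group, 164.5 CPM. Rac2 in trastuzumab 12 was 134 CPM, with 118 the next highest and a gap of 0.89 of the range, and its total count, 7344936, was the highest of its group. BC017643 (Cybc1) in panobinostat 13 was 45.2 CPM, with 54.4 the next lowest and a gap of 0.9 of the range, and its total count, 6267514, was the highest of its group. The part of the total count or of the marker cells in these 3 values was not tested.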

How the results depend on the processing

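No paired analysis was possible because every mouse number occurs once over the 16 libraries. Of 780 values of the 45 log2 differences under the alternatives, 721 kept their direction and side of the threshold, 3 became calls and 56 changed sign, 42 of them on leaving out 1 library. The 17 differences that changed sign were all 0.17 or smaller in size. Called members went from 0 to 1 in the combination against vehicle with DESeq2 and with the total count as a covariate (chosen after seeing the data), and from 0 to 1 for panobinostat averaged over trastuzumab with that covariate; leaving out a library gave 0 called members in every comparison. The shares of all genes called in those fits were 3.09%, 4.27% and 5.64%. The cause was not tested. Ncf4 in panobinostat against trastuzumab became -0.0046 with median-ratio size factors, -0.0012 with no filter, -0.0045 with DESeq2, -0.00019 with limma voom and -0.0043 with only the groups compared. Cyba in trastuzumab against vehicle became 0.025 with total counts and 0.010 with voom. The interaction became 0.018 for Ncf1 with no filter, and -0.037 with voom and -0.096 with the covariate for Ncf4. In the combination against panobinostat Ncf1 became -0.0052 with voom and -0.019 with the covariate, and Ncf4 -0.017 with the covariate. Ncf1 for averaged trastuzumab became -0.0055 with the covariate. Leaving out 1 library gave these ranges. Against vehicle, Ncf4 ran from -0.082 to 0.28 in the combination, -0.027 to 0.14 with panobinostat and -0.022 to 0.14 with trastuzumab; with trastuzumab Cyba ran from -0.12 to 0.13 and Ncf1 from -0.036 to 0.048. In the combination against panobinostat, Ncf1 ran from -0.076 to 0.069, Ncf4 from -0.15 to 0.22 and Rac2 from -0.034 to 0.18. Against trastuzumab, Cybb ran from -0.056 to 0.10 and Ncf4 from -0.15 to 0.21 in the combination, and Ncf4 from -0.051 to 0.018 with panobinostat. The interaction ran from -0.085 to 0.067 for Ncf1, -0.22 to 0.16 for Ncf4 and -0.19 to 0.022 for Rac2. For averaged panobinostat Ncf4 ran from -0.041 to 0.13, and for averaged trastuzumab Ncf1 from -0.034 to 0.035 and Ncf4 from -0.041 to 0.14. Over all alternatives, counts of all genes called ran from 127 to 666 for the combination against vehicle, 3 to 230 for panobinostat against vehicle, 0 to 8 for trastuzumab against vehicle, 3 to 225 for the combination against trastuzumab, 0 to 9 for the combination against panobinostat and 2 to 120 for panobinostat against trastuzumab. They ran from 329 to 881 for averaged panobinostat and 2 to 60 for averaged trastuzumab.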
